A study of Danio rerio x Danio aesculapii and Danio rerio x Danio albolineatus and Danio rerio x Danio kyathit with 48 samples.

Results

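The genes of the vacuolar ATPase were followed in the skin of interspecies Danio hybrids, in sorted pigment cells and in whole skin. Members were all genes in the deposited tables whose symbol begins with atp6v or atp6ap, which gave 24 of 19629 genes. They comprise 12 genes of the V1 sector, 7 of the V0 sector and 5 of the accessory proteins. Genes of the same machine with other names, such as the a3 subunit genes tcirg1a and tcirg1b, are not members and are given below as partner genes.

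The vacuolar ATPase is a rotary proton pump of lysosomes, endosomes, secretory vesicles and pigment organelles. Its V1 sector hydrolyses ATP in a head of A and B subunits and turns a central stalk, which drives a ring of c proteolipids in the membrane sector V0, past which the a subunit lets protons cross. Peripheral stalks of E and G subunits hold the head still, and the C and H subunits join or regulate the sectors. In zebrafish, mutants of several of its subunit genes have pale pigment cells, and the pH inside melanosomes is known to affect melanin synthesis.

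The fish were hybrids of D. rerio (zebrafish) mothers and fathers of 4 relatives: D. nigrofasciatus, D. kyathit, D. albolineatus and D. aesculapii. Each hybrid gave iridophore-enriched cells sorted on pnp4a:mem-mCherry, melanophore-enriched cells sorted on tyrp1b:mem-mCherry, xanthophore-enriched cells sorted on aox5:mem-EGFP, and unenriched adult skin as control. Iridophores carry reflective purine crystals, melanophores melanin and xanthophores yellow to orange pigment. With 3 libraries in each of 16 groups, numbered 3, 4 and 5 as the labels' batches, 48 libraries of polyA RNA were compared, with values given apart for the paternal and the D. rerio allele. Whether the 3 libraries of a group came from separate fish is not given, so p-values measure the spread between these libraries alone, and that spread could be technical.

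Libraries differed widely in depth, which was estimated from the scatter of the allele shares as a number of molecules. It ran from 36359 to 986258, with medians of 194909 for iridophore-, 95234 for melanophore- and 93350 for xanthophore-enriched libraries, against 507989 for unenriched ones. The unenriched libraries kyathit 5 (75367 molecules) and nigrofasciatus 3 (106113 molecules) were far shallower than the other unenriched ones, and the number of members called in each comparison was the same without them. The sorts showed in their reporter genes: pnp4a was 5.62 higher on the log2 scale in iridophore-enriched than in unenriched libraries, tyrp1b 6.20 higher in melanophore-enriched and aox5 2.30 higher in xanthophore-enriched libraries. Some reporter genes were also higher in another sorted kind than in unenriched libraries. These were pnp4a in melanophore-enriched libraries, by 2.28 (limma adjusted p = 9.34e-06), and tyrp1b in iridophore-enriched ones, by 1.85 (adjusted p = 0.0172). In contrast, aox5 did not pass in melanophore-enriched libraries (0.84, adjusted p = 0.108) and was lower in iridophore-enriched ones (-2.07). In xanthophore-enriched libraries neither pnp4a (1.11) nor tyrp1b (0.58) passed. Whether other cells were carried along or the sorted cells express these genes was not tested. All 7 tested of 10 xanthophore markers were higher in xanthophore-enriched than in unenriched libraries, against 8.26% of all tested genes. There 0 of 6 tested iridophore and 1 of 3 melanophore markers were higher. In melanophore-enriched libraries 7 of 8 tested xanthophore and 8 of 8 iridophore markers were higher, against 18.2% of all tested genes. In iridophore-enriched libraries 3 of 4 tested melanophore markers were higher, and of 8 xanthophore markers 2 were higher and 3 lower. Of all tested genes 24.1% were higher and 26.5% lower there. Some of these markers passed the minimum level for testing, given below, through 1 kind alone and so had to differ. In the melanophore comparison these were tfec, alx4a, ednrba, pax7b and slc2a15b, with unenriched means of 116 to 273, under 305. In the xanthophore comparison they were pax7b, mc1r and tfec (199, 198 and 273, under 328). In the iridophore comparison slc45a2 and pax7a (90.7 and 72.8, under 154) had to be higher, and sprb lower.

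Values below are scaled allele reads summed over both alleles of a gene in a library. They carry no correction for gene length or for how many positions distinguish the parents, so a gene is compared with itself between kinds of library and not with other genes. In bulk RNA, fewer cells of a type and less RNA per cell cannot be told apart.

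Together the 24 genes took a larger part of each sorted kind of library than of whole skin. Their share of the summed value was lowest 0.198%, median 0.280% and highest 0.455% in the 12 melanophore-enriched libraries. In iridophore-enriched libraries it was 0.149%, 0.190% and 0.299%, and in xanthophore-enriched libraries 0.1004%, 0.156% and 0.214%. The 12 unenriched libraries had 0.0746%, 0.0963% and 0.139%. All iridophore-enriched and all melanophore-enriched libraries lay above all unenriched ones, while the xanthophore-enriched range overlapped that of whole skin. Within hybrids the order was melanophore-enriched, iridophore-enriched, xanthophore-enriched and unenriched by the means of 3 libraries in each of the 4 crosses. Libraries of some neighbouring kinds overlapped in the aesculapii, albolineatus and kyathit hybrids, and those of the nigrofasciatus hybrid did not.

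**Figure D1:**
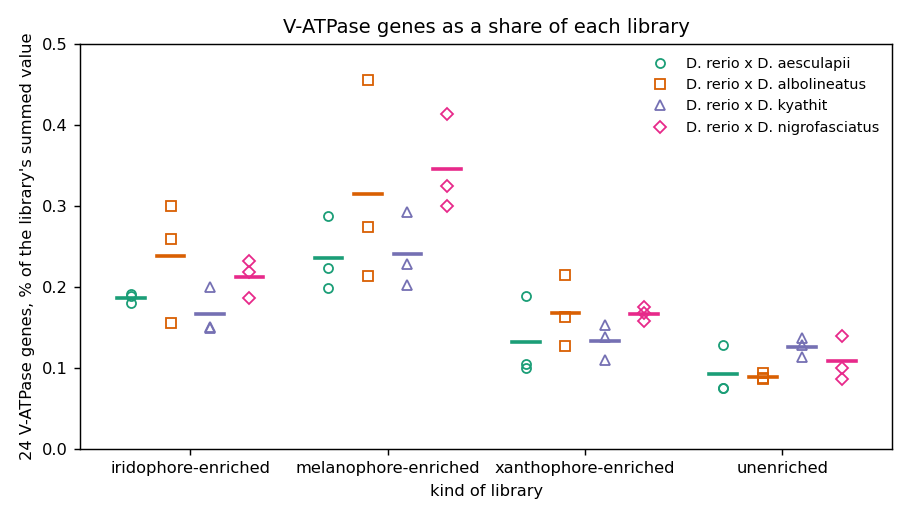
Share of each library's summed value taken by the 24 V-ATPase genes (vertical axis, percent), by kind of library (horizontal axis). Each symbol is 1 library, its shape and colour give the hybrid, and short bars are means of 3 libraries; melanophore-enriched libraries reach 0.455%, and no unenriched library is above 0.139%.

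In iridophore-enriched libraries most of the pump's genes were higher than in whole skin, and 1 gene of the a subunit was lower. Of the 24 members, 18 were abundant enough to be tested against unenriched skin (a mean over both kinds worth at least 5 molecules at the sorted libraries' depth). Of these, 14 rose and 1 fell at a limma adjusted p under 0.05, against 24.1% of all tested genes that were higher and 26.5% that were lower. The median difference of the tested members was 0.89 on the log2 scale, and that of all 6213 tested genes was -0.07. By sector, 9 of 11 tested V1 genes, 3 of 5 V0 genes and both accessory genes rose. Since the minimum was set on the mean over both kinds, a gene could pass it through one kind alone and then had to differ, so these counts and medians describe the members that passed and support nothing by themselves. With 5 molecules required in each kind, a check chosen after seeing the data, 13 of 17 members rose and 1 fell, against 22.0% of all genes higher and 20.5% lower.

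Among the tested members the largest difference was that of atp6v0cb, 1 of 2 genes for the c proteolipid of the rotating ring. It was the 1 member that passed the minimum, a value of 154, through the iridophore-enriched libraries alone, with a mean of 581 there and 94.5 in unenriched libraries. Its values were lowest 258, median 505.5 and highest 1040 in the 12 iridophore-enriched libraries, against 21, 76 and 191 in the 12 unenriched libraries. No library of one kind reached into the range of the other. The log2 difference was 2.52 ± 0.23 (SE, limma adjusted p = 9.46e-13), a fold of 5.74, and it was 2.94, 2.03, 2.26 and 2.86 in the aesculapii, albolineatus, kyathit and nigrofasciatus hybrids. The other c gene, atp6v0ca, did not pass the test, with 311, 522 and 1577 in iridophore-enriched against 327, 399.5 and 834 in unenriched libraries (0.28 ± 0.23, adjusted p = 0.325).

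Genes of the V1 stalks and of the C subunit followed. The peripheral stalk gene atp6v1e1b had lowest 502, median 1555.5 and highest 3223 in iridophore-enriched libraries, against 216, 349 and 660 in unenriched ones (1.77 ± 0.22, adjusted p = 3.96e-09). The ranges overlapped, but all 12 iridophore-enriched libraries were above their hybrid's unenriched mean. For atp6v1c1b, a gene of the C subunit that links the head to the membrane sector, the values were 170, 480 and 816 against 68, 143 and 278 (1.55 ± 0.25, adjusted p = 9.20e-07). The rotor stalk gene atp6v1f had 366, 476 and 990 against 72, 192.5 and 646 (1.38 ± 0.21, adjusted p = 3.97e-07), again with all 12 libraries above their hybrid's unenriched mean. The stalk gene atp6v1g1 had 530, 811.5 and 2052 in iridophore-enriched against 221, 407 and 1064 in unenriched libraries (1.14 ± 0.19, adjusted p = 1.56e-06).

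The other V1 members that rose were atp6v1c1a (0.99), the regulatory H subunit gene atp6v1h (0.99), the catalytic A subunit gene atp6v1ab (0.87), the rotor gene atp6v1d (0.78) and atp6v1e1a (0.70), all as log2 differences. Both remaining tested V1 genes belong to the head and did not pass: atp6v1aa, the second A gene, differed by -0.26 (adjusted p = 0.490) and the B subunit gene atp6v1ba by -0.39 (adjusted p = 0.273). Of V0, the d subunit gene atp6v0d1 (0.85) and the ring gene atp6v0b (0.52) rose. Of the accessory genes, atp6ap2, the prorenin receptor, rose by 1.12 ± 0.18 and atp6ap1b by 0.91 ± 0.18. The calls of atp6v0b, atp6v1ab and atp6v1e1a were lost when certain batches were left out in turn, which also left fewer libraries. The limma adjusted p of atp6v0b was 0.0978, 0.269 and 0.206 without batch 3, 4 and 5, and 0.102 with the batch as a block. That of atp6v1ab was 0.611 without batch 3 and 0.0650 without batch 5, and that of atp6v1e1a was 0.262 without batch 4 and 0.136 without batch 5. Within batches 3, 4 and 5 the log2 difference was 0.31, 0.58 and 0.56 for atp6v0b. It was 2.60, -0.18 and 0.71 for atp6v1ab and 0.036, 1.01 and 0.89 for atp6v1e1a.

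The member that fell was atp6v0a1a, a gene of the a subunit, which carries the proton path and the signals for the membrane the pump is sent to. It had lowest 30, median 188 and highest 448 in iridophore-enriched libraries, against 298, 469.5 and 1521 in unenriched ones. The ranges overlapped, but none of the 12 iridophore-enriched libraries was above its hybrid's unenriched mean. The log2 difference was -1.62 ± 0.30 (limma adjusted p = 1.02e-05), and by hybrid it was -1.90, -2.27, -0.45 and -1.87 in the aesculapii, albolineatus, kyathit and nigrofasciatus hybrids. Within batches 3, 4 and 5 it was -2.44, -0.94 and -1.50.

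Melanophore-enriched libraries showed the same direction for nearly all tested genes of the pump. Against whole skin, 14 of 16 tested members rose and none fell, against 18.2% of all tested genes that were higher and 15.5% that were lower. Their median difference was 1.15 on the log2 scale, and that of all 3527 tested genes -0.05. By sector, 9 of 10 V1 genes, 3 of 4 V0 genes and both accessory genes rose. The minimum was a value of 305 here, and 6 of the 14 (atp6v1ab, atp6v1c1a, atp6v1c1b, atp6v1d, atp6v1f and atp6v0d1) passed it through the melanophore-enriched libraries alone, their unenriched means being 155 to 284, so that they had to be higher to be tested. With 5 molecules in each kind, 8 of 10 members rose and none fell, against 15.2% of all genes higher and 12.6% lower. Over all tested genes, 641 were higher and 548 lower, which became 786 and 407 when the libraries were rescaled with recomputed size factors, while the member count stayed at 14.

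Here the ring gene atp6v0ca led. Its values were lowest 643, median 1722.5 and highest 4246 in melanophore-enriched libraries, against 327, 399.5 and 834 in unenriched ones (1.87 ± 0.22, limma adjusted p = 1.11e-08). All 12 were above their hybrid's unenriched mean. The E gene atp6v1e1b had 576, 1489 and 2770 against 216, 349 and 660 (1.72 ± 0.23, adjusted p = 2.42e-07), and the A gene atp6v1ab 343, 478 and 1658 against 22, 172 and 359 (1.65 ± 0.34, adjusted p = 0.000258). The G gene atp6v1g1 had 808, 1195 and 2104 against 221, 407 and 1064 (1.63 ± 0.19, adjusted p = 8.97e-09). For atp6ap2 the ranges did not overlap: 1278, 1859 and 4470 in melanophore-enriched against 508, 607 and 841 in unenriched libraries (1.55 ± 0.18, adjusted p = 9.84e-09).

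The 9 other members that rose in melanophore-enriched libraries did so by 0.76 to 1.54 on the log2 scale, from atp6v1ba and atp6v0d1 at the low end to atp6v1c1b at the high end. Neither atp6v0a1a (0.12, adjusted p = 0.734) nor atp6v1aa (0.04, adjusted p = 0.934) passed the test. The paralogue atp6v0cb was too low in depth to be tested here, with 34, 220 and 495 in melanophore-enriched against 21, 76 and 191 in unenriched libraries. Among the weaker calls, those of atp6v0b and atp6v0d1 were lost without batch 5 (adjusted p = 0.0829 and 0.0818), and those of atp6v1ba and atp6v1d without batch 3 (adjusted p = 0.138 and 0.0528).

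Xanthophore-enriched libraries gave fewer calls, at a similar depth to the melanophore-enriched ones. Of 11 tested members 3 rose and none fell, against 8.26% of all tested genes that were higher and 5.60% that were lower. The members' median difference was 0.47 and that of all 3390 tested genes -0.05. The members that rose were atp6v1g1, with lowest 375, median 965.5 and highest 1445 in xanthophore-enriched against 221, 407 and 1064 in unenriched libraries (1.005 ± 0.236, limma adjusted p = 0.00267), atp6v0ca (0.97 ± 0.28, adjusted p = 0.0159) and atp6ap2 (0.67 ± 0.23, adjusted p = 0.0433). These calls were fragile: leaving out 1 batch at a time left between 0 and 2 of them, with adjusted p-values for atp6ap2 of 0.321, 0.362 and 0.0923 without batch 3, 4 and 5, for atp6v0ca of 0.186 and 0.571 without batch 3 and 4, and for atp6v1g1 of 0.305 without batch 4. With 5 molecules in each kind 2 of 9 rose, against 7.30% of all genes higher and 4.10% lower, the call of atp6ap2 being lost (adjusted p = 0.0511). The E gene atp6v1e1b had 195, 784 and 1324 against 216, 349 and 660 and did not pass (0.76 ± 0.30, adjusted p = 0.0819), although 11 of 12 xanthophore-enriched libraries were above their hybrid's unenriched mean. With recomputed size factors 4 members were called, atp6v1e1b being added (0.92, adjusted p = 0.0314), and the count over all genes became 455 higher and 127 lower, against 280 higher and 190 lower as deposited. That rescaling shifted the median difference of all tested genes to 0.02, 0.08 and 0.11 in iridophore-, melanophore- and xanthophore-enriched libraries, against -0.07, -0.05 and -0.05 as deposited.

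**Figure D2:**
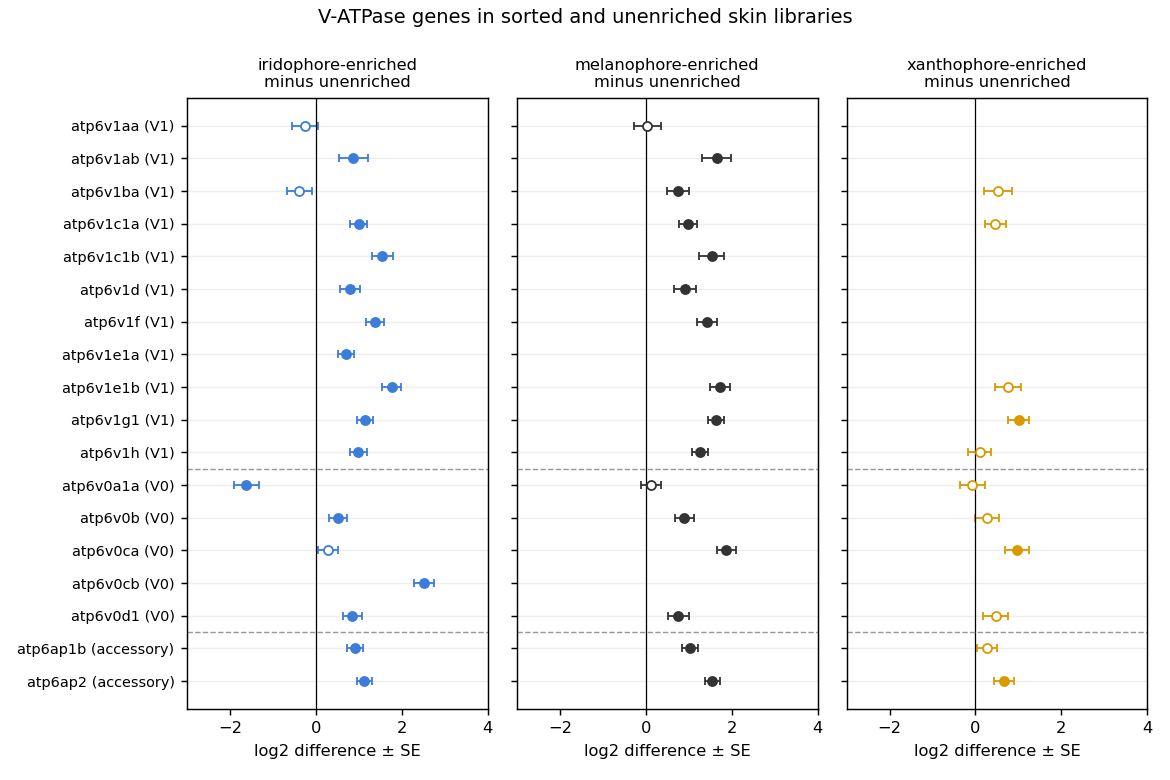
Log2 difference of each tested V-ATPase gene (horizontal axis, with its SE) between the sorted and the unenriched libraries, 1 panel per sorted kind, genes ordered by sector. Filled points passed a limma adjusted p of 0.05, open points did not, and genes without a point were not tested in that comparison; atp6v0a1a at -1.62 in iridophore-enriched libraries is the single filled point left of 0.

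The tested members moved in the same direction in most crosses, with smaller values in the kyathit hybrid. In iridophore-enriched against unenriched libraries the members' median difference was 0.89, 1.25, 0.28 and 0.97 in the aesculapii, albolineatus, kyathit and nigrofasciatus hybrids. The same medians were 1.13, 1.39, 0.69 and 1.62 for melanophore-enriched and 0.89, 0.54, 0.16 and 0.68 for xanthophore-enriched libraries. The kyathit unenriched libraries also had the highest mean share of V-ATPase genes among unenriched groups, 0.126% ± 0.0119 (SD, n = 3). No member's difference was found to vary among hybrids: 0 of 45 interaction tests passed a limma adjusted p of 0.05, 3 passed at an unadjusted p under 0.05, and the lowest adjusted p was 0.119 for atp6v1g1. Over all tested genes 0.290%, 0.0284% and 0% passed in the iridophore, melanophore and xanthophore comparisons. Within batches 3, 4 and 5, the members' median difference was 1.1, 0.70 and 0.88 in iridophore-enriched, 1.49, 0.93 and 1.30 in melanophore-enriched and 0.64, 0.55 and 0.37 in xanthophore-enriched libraries.

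Against each other, the sorted kinds differed in a few members. Of 18 tested members, 1 was higher and 4 were lower in iridophore-enriched than in melanophore-enriched libraries, against 18.3% and 18.0% of all genes. The gene atp6v0cb was higher, with 258, 505.5 and 1040 against 34, 220 and 495 (1.28 ± 0.26, limma adjusted p = 8.26e-05). Lower were atp6v0a1a, with 30, 188 and 448 against 240, 583.5 and 1244 (-1.75 ± 0.31, adjusted p = 1.1e-05), and atp6v0ca, with 311, 522 and 1577 against 643, 1722.5 and 4246 (-1.60 ± 0.24, adjusted p = 5.22e-07). Also lower were atp6v1ba (-1.14 ± 0.32, adjusted p = 0.00429) and atp6v1g1 (-0.49 ± 0.19, adjusted p = 0.0408), the call of which was lost with the batch as a block (adjusted p = 0.0661) and without any 1 batch. The 13 members that did not pass differed by -0.80 to 0.35. Of the 5, atp6v0cb and atp6v0a1a passed the molecule minimum through the kind where they are higher; with 5 molecules in each kind, 0 of 14 members were higher and 2 lower (atp6v0ca and atp6v1ba), against 14.1% and 11.3% of all genes.

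Against xanthophore-enriched libraries, 5 of 16 tested members were higher and 1 was lower in iridophore-enriched ones, against 17.0% of all genes in each direction. Higher were atp6v0cb (1.76 ± 0.32, limma adjusted p = 2.58e-05), atp6v1e1b (1.02 ± 0.30, adjusted p = 0.00648), atp6v1c1b (0.95 ± 0.34, adjusted p = 0.0241), atp6v1h (0.88 ± 0.26, adjusted p = 0.00690) and atp6ap1b (0.63 ± 0.24, adjusted p = 0.0390). The gene atp6v0a1a was lower, with 30, 188 and 448 against 204, 361 and 1801 (-1.59 ± 0.36, adjusted p = 0.000411), except in the kyathit hybrid, where the difference was 0.27. Leaving out 1 batch at a time gave 1 to 5 calls. Without batch 3 those of atp6v0a1a (-1.17, adjusted p = 0.0732), atp6v1h, atp6v1e1b and atp6ap1b were lost, without batch 4 those of atp6v1h, atp6v1e1b and atp6v1c1b, and without batch 5 those of atp6v1c1b and atp6ap1b. With the batch as a block, atp6v1ba was also lower in iridophore-enriched libraries (-0.94, adjusted p = 0.0410). Here atp6v0cb, atp6v1c1b and atp6v0a1a passed the molecule minimum through 1 kind alone; with 5 molecules in each kind, 2 of 13 members were higher (atp6v1e1b and atp6v1h) and none lower, against 11.9% and 11.6% of all genes.

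Melanophore-enriched libraries were higher than xanthophore-enriched ones in 2 of 16 tested members and lower in none, against 2.21% and 1.38% of all genes. These were atp6v1h, with lowest 883, median 1466 and highest 3056 in melanophore-enriched against 260, 567.5 and 2276 in xanthophore-enriched libraries (1.16 ± 0.27, limma adjusted p = 0.00580), and atp6ap2 (0.88 ± 0.23, adjusted p = 0.0224). With the batch as a block 4 members passed, atp6ap1b (0.77, adjusted p = 0.0449) and atp6v1e1b (0.95, adjusted p = 0.0254) being added. Without any 1 batch none passed. With 5 molecules in each kind these 2 of 14 passed, against 1.43% of all genes higher and 1.04% lower. All 16 differences were above 0.

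**Figure D3:**
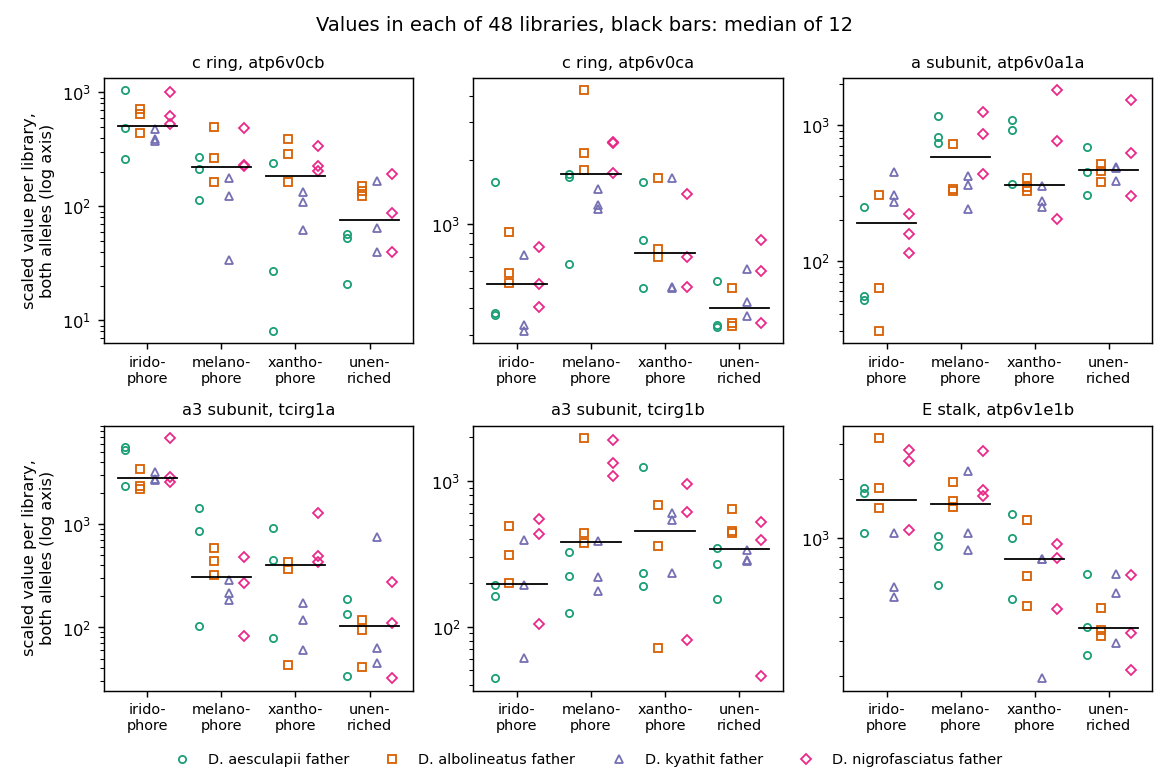
Scaled values, both alleles summed, in each of the 48 libraries (vertical log axis) for both c ring genes, 3 genes of the a subunit and an E stalk gene, by kind of library (horizontal axis). Symbols give the hybrid and black bars the median of 12 libraries; atp6v0cb and tcirg1a are highest in iridophore-enriched libraries, atp6v0a1a is lowest there, and atp6v0ca is highest in melanophore-enriched libraries.

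For 4 subunits the share of one copy in a duplicated gene pair was compared between kinds. The 4 pairs were chosen because their copies differed most between kinds in these same data. The p-values of the pair tests do not allow for that choice, so they describe the chosen pairs and support nothing by themselves. The molecule minimum of the expression tests was not required of each copy here, so some shares rest on few molecules. Reads that fit both copies could have been split or lost in the counting, which makes the shares uncertain in level, and only their differences between kinds are read here. Of the c ring pair, atp6v0cb made up a median of 52.6% (range 35.4% to 60.3%) in iridophore-enriched libraries, against 11.1% (2.28% to 29.7%) in melanophore-enriched, 19.5% (0.504% to 40.1%) in xanthophore-enriched and 14.3% (3.74% to 29.5%) in unenriched libraries. The log2 ratio of atp6v0cb to atp6v0ca was 2.96 higher in iridophore-enriched than in melanophore-enriched libraries, 2.40 higher than in xanthophore-enriched and 2.16 higher than in unenriched ones, each in 4 of 4 hybrids. Each of these had an exact two-sided permutation p of 1.25e-05, the smallest that 160000 permutations of kinds within hybrids can give, and an adjusted p of 0.0001 over 24 pair tests. Melanophore-enriched and unenriched libraries differed by -0.80 (exact permutation, adjusted p = 0.120). The mean of atp6v0cb was 233 in melanophore- and 183 in xanthophore-enriched libraries, below the minimum values of 305 and 328 there. The share of 0.504% came from a value of 8 in a library with a value per molecule of 144. The size of the ratio differences from these kinds is therefore uncertain.

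The E subunit pair shifted in all 3 sorted kinds. Its second copy, atp6v1e1a, had means of 290 in melanophore- and 181 in xanthophore-enriched libraries, below the minimum values of 305 and 328 there. The gene atp6v1e1b took a median of 79.6% of the pair in iridophore-enriched, 83.6% in melanophore-enriched and 79.8% in xanthophore-enriched libraries, against 67.8% in unenriched ones. The log2 ratio of atp6v1e1b to atp6v1e1a was higher than in whole skin by 1.14, 1.38 and 1.11, in 4 of 4 hybrids each (exact permutation, adjusted p = 0.00675, 0.0066 and 0.0141). Among the A subunit genes, atp6v1ab took 58.3% in melanophore-enriched against 30.2% in unenriched libraries, a log2 ratio 1.72 higher (exact permutation, adjusted p = 0.0045). The corresponding difference of 1.17 in iridophore-enriched libraries did not pass (adjusted p = 0.0537, exact permutation). No difference passed for the C subunit pair, whose differences lay between -0.06 and 0.58 on the log2 scale.

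**Figure D4:**
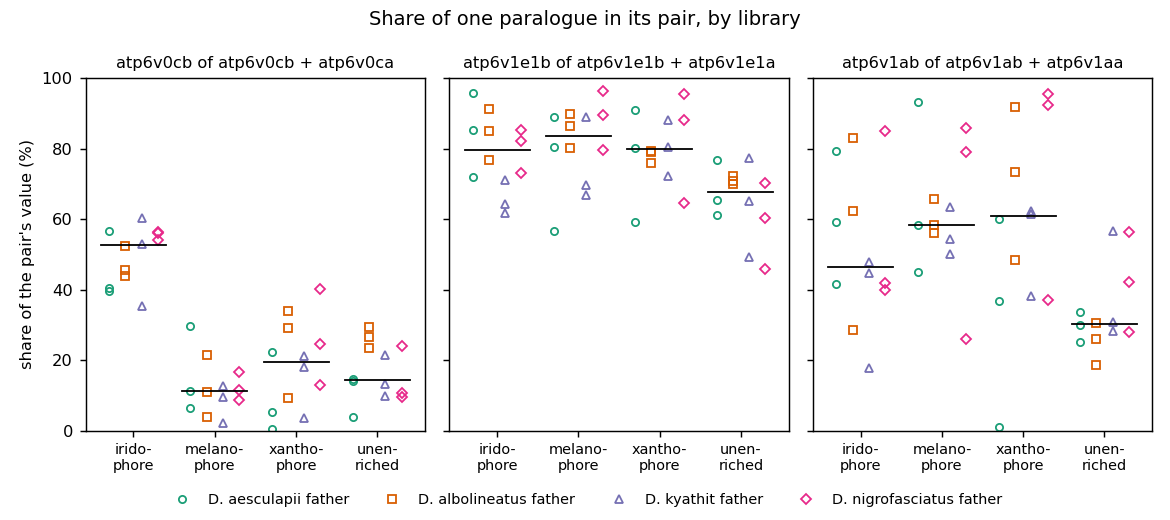
Share of one copy in its gene pair (vertical axis, percent of the pair's value) for the c ring, E stalk and A head genes in each library, by kind of library (horizontal axis). Symbols give the hybrid and black bars the median of 12 libraries; the atp6v0cb share centres on 52.6% in iridophore-enriched libraries and on 11.1% to 19.5% in the others.

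For 6 members the values between kinds of library could be tested in no comparison. The B subunit gene atp6v1b2 had medians of 7.5, 2.5, 17 and 14 in iridophore-, melanophore-, xanthophore-enriched and unenriched libraries, and the accessory gene atp6ap1a 0.5, 0.5, 3 and 11.5. The like-named accessory gene atp6ap1lb had medians of 0, 1, 0 and 9.5, and atp6ap1la was listed at 0 in all 12 iridophore-enriched libraries and had a median of 0 in every kind. Of the a subunit genes, atp6v0a2a had medians of at most 1 and atp6v0a2b of 50.5, 81.5, 43.5 and 76.5. Single libraries could be far higher, up to 664 for atp6v1b2 and 460 for atp6v0a2b in melanophore-enriched ones, but the means were worth under 5 molecules in every comparison.

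Partner genes of the pump were taken from a list of 20 subunits with other names, assembly factors and binding partners, of which 11 were in the tables. In iridophore-enriched against unenriched libraries 5 of 7 tested rose and none fell, against 24.1% of all tested genes that were higher and 26.5% lower. The largest difference was that of tcirg1a, the a3 isoform of the a subunit, known in mammals from lysosomes and osteoclasts. It had lowest 2213, median 2816 and highest 6953 in iridophore-enriched libraries, against 32, 102.5 and 758 in unenriched ones, with no overlap (4.90 ± 0.37, limma adjusted p = 2.12e-14). It was also 3.35 and 3.71 higher than in melanophore- and xanthophore-enriched libraries, where the values were 83, 306 and 1432 and 43, 401.5 and 1278, again with no overlap. Its paralogue tcirg1b did not pass against whole skin (-0.57, adjusted p = 0.202) and was lower in iridophore- than in melanophore-enriched libraries (-1.14, adjusted p = 0.0172). For the latter call tcirg1b passed the minimum of 305 through the melanophore-enriched libraries alone. Its means were 262 in iridophore- and 718 in melanophore-enriched libraries, so it had to be lower to be tested. So within the a subunit tcirg1a was higher and atp6v0a1a lower in iridophore-enriched than in unenriched libraries, and tcirg1a was also higher than in the other sorted kinds. Against melanophore- and xanthophore-enriched libraries atp6v0a1a passed the minimums of 305 and 328 through those kinds alone. Its iridophore-enriched mean was 189, so it had to be lower to be tested. Against xanthophore-enriched libraries it was not lower in the kyathit hybrid, and the call was lost without batch 3.

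Also higher in iridophore-enriched than in unenriched libraries were oxr1b, a TLDc-domain gene whose yeast relative promotes disassembly of the pump (3.24 ± 0.25), the V0 component rnaseka (1.60 ± 0.21), and the assembly factors ccdc115 (1.52 ± 0.24) and vma21 (1.23 ± 0.17). Of these, oxr1b and ccdc115 passed the minimum of 154 through the iridophore-enriched libraries alone, with means of 579 and 329 there against 40.5 and 88.2 in unenriched ones, and so had to be higher to be tested. In melanophore-enriched libraries 2 of 3 tested partners rose, rnaseka (1.79 ± 0.22, limma adjusted p = 3.35e-08) and vma21 (0.94 ± 0.20, adjusted p = 0.000288), against 18.2% of all genes; both passed the minimum through the melanophore-enriched libraries alone. In xanthophore-enriched libraries neither of 2 tested partners passed.

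Genes that act with the pump at the lysosome were counted by list in the same fit, with limma adjusted p-values over all tested genes. Of the Ragulator and Rag genes, which sense nutrients on the lysosome together with the pump, all 6 tested of 12 in the tables rose in iridophore-enriched against unenriched libraries. The largest of these were lamtor5 (1.94) and lamtor3 (1.35), and the median was 1.26 on the log2 scale, against -0.07 for all genes, of which 24.1% were higher. Both of these passed the minimum through the iridophore-enriched libraries alone, and the other 4 in each kind. In melanophore-enriched libraries 1 of 2 rose, lamtor4 (0.75), and in xanthophore-enriched libraries 0 of 2. Among MiT/TFE factors, of which mammalian TFEB and TFE3 are known to act on lysosomal genes, tfec rose in iridophore-enriched (4.93 ± 0.30, adjusted p = 7.00e-17) and melanophore-enriched libraries (2.22 ± 0.36). That gene is also an iridophore marker, and tfe3a fell in iridophore-enriched libraries (-0.96). The melanophore-enriched calls of tfec and lamtor4 were lost without batch 4 (adjusted p = 0.0547 and 0.279), that of lamtor4 also without batch 5, and that of tfe3a without batch 3 or 4 (0.127 and 0.0810). In these calls tfec and lamtor4 passed the minimum through the melanophore-enriched and tfe3a through the unenriched libraries alone.

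Of 20 genes for lysosomal enzymes and membrane proteins, 6 rose and 4 fell among 15 tested in iridophore-enriched libraries. Of all tested genes 24.1% were higher and 26.5% lower there. In melanophore-enriched libraries 8 of 12 rose and none fell, against 18.2% higher and 15.5% lower over all genes, led by the protease gene ctsd (2.70) and the ceramidase gene asah1b (2.31), and in xanthophore-enriched libraries 4 of 11 rose and 1 fell, against 8.26% and 5.60%. The list medians were 0.22, 0.88 and 0.32. Of the 10 iridophore calls 5, 4 and 5 were kept without batch 3, 4 and 5 and 7 with the batch as a block, where npc2, ctsla and lamp2 were lost; of the 8 melanophore calls 8, 7 and 7 were kept without batch 3, 4 and 5, and of the 5 xanthophore calls 0, 0 and 3. Of the organelle channels and exchangers, slc45a2, a melanosomal transporter gene, was higher in melanophore-enriched (3.09 ± 0.41) and iridophore-enriched libraries (1.94 ± 0.37), having passed the minimum through the sorted kind alone in both. Of the 6 tested in iridophore-enriched libraries, the lysosomal cation channel gene tpcn2 also rose (0.83 ± 0.26), a call lost without precision weights (adjusted p = 0.130) and without batch 4 (0.169). Its relative tpcn3 fell (-1.23 ± 0.34, adjusted p = 0.00231), a call lost without batch 3 (0.0957) and without batch 5 (0.0577); it passed the minimum through the unenriched libraries alone. The mitochondrial F-type ATP synthase, a rotary ATPase of another family, had 8, 8 and 6 of 12 tested genes higher in iridophore-, melanophore- and xanthophore-enriched libraries, with medians of 0.61, 0.46 and 0.57, and none lower. Over all genes 24.1%, 18.2% and 8.26% were higher. Many of these F-type calls were lost when 1 batch was left out, which also left fewer libraries. Without batch 3, 4 and 5, 5, 4 and 7 of the 8 iridophore calls were kept, and 1, 0 and 1 of the 6 xanthophore calls. Of the 8 melanophore calls 0, 0 and 6 were kept without batch 3, 4 and 5. Of the same 8, 1 was kept without precision weights and 7 with the batch as a block.

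Macrophages, osteoclasts and ionocytes are rich in V-ATPase, and their markers differed between kinds of library. The summed value of 11 macrophage markers was lowest 30791, median 45747.5 and highest 79108 in melanophore-enriched and 11255, 23014 and 52196 in xanthophore-enriched libraries. In iridophore-enriched libraries it was 1190, 3953.5 and 10812, against 6324, 18045 and 24885 in unenriched ones. Of 10 tested macrophage markers 6 rose and 1 fell in melanophore-enriched, 4 rose and 1 fell in xanthophore-enriched, and 0 rose and 9 fell in iridophore-enriched libraries. Over all tested genes 18.2%, 8.26% and 24.1% were higher and 15.5%, 5.60% and 26.5% lower, in that order. In each kind 10 of the 11 markers were above 0 in all libraries. The part of these cells in the V-ATPase differences of iridophore-, melanophore- and xanthophore-enriched libraries was not tested.

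The 5 osteoclast markers in the tables summed to 368, 1488 and 4237 in iridophore-enriched, 2508, 3743.5 and 5277 in melanophore-enriched and 1194, 2800 and 10319 in xanthophore-enriched libraries, against 2000, 3321.5 and 7728 in unenriched ones. The 13 ionocyte markers summed to 333, 1160.5 and 3708 in iridophore-enriched, 40, 212.5 and 4147 in melanophore-enriched and 14, 122.5 and 448 in xanthophore-enriched libraries, against 55, 185.5 and 2513 in unenriched ones. Of these, 2 were tested in iridophore-enriched against unenriched libraries and 1, cftr, rose (4.02), against 24.1% of all tested genes. In both kinds 12 of the 13 markers had medians under 20. Among these were the ionocyte factors foxi3a and foxi3b, with medians of 0 and 1.5 in iridophore-enriched against 9.5 and 0 in unenriched libraries. Keratinocyte markers fell in iridophore-enriched (8 of 10 tested) and melanophore-enriched libraries (9 of 9), as did fibroblast markers (9 of 9 and 7 of 9). Over all tested genes 26.5% and 15.5% were lower in these kinds. In xanthophore-enriched libraries 0 of 10 tested keratinocyte and 5 of 9 tested fibroblast markers fell, against 5.60% of all tested genes. The 10 keratinocyte markers summed to a median of 124346 there, against 160927 in unenriched, 72394.5 in iridophore- and 50552 in melanophore-enriched libraries. The part of these cells in the V-ATPase differences was not tested.

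The alleles of both parents share one nucleus, so a paternal to D. rerio ratio away from the library's centre compares the parental copies in the same cells. Log2 ratios were centred in each library on the median over genes with 5 or more molecules there. Of the members, 19 had enough molecules to be tested in at least 1 of the 16 groups. Of 250 member tests, 33 passed a limma adjusted p of 0.05, in 12 genes, against 18.0% of all tests. The paternal allele was higher in 10 and lower in 23. Directions were not counted over all genes, so the splits here and by hybrid describe these members alone. How reads of each allele were aligned is not given in the sources used here, and its part in the directions was not tested. By hybrid, the paternal allele was higher in 0 and lower in 4 of 57 tests in aesculapii, 2 and 5 of 65 in albolineatus, 3 and 6 of 65 in kyathit, and 5 and 8 of 63 in nigrofasciatus. Over all genes 11.4%, 23.0% and 20.4% of tests passed in the aesculapii, albolineatus and nigrofasciatus hybrids, and 3911 of 24386 in kyathit. Of the 33 calls, 15 were kept without precision weights, 17, 10 and 11 without batch 3, 4 and 5, and 31 with the batch as a block; 5 passed under every alternative in which they could be tested.

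The regulatory H subunit gene atp6v1h had the most calls, all with a lower paternal allele and all in the kyathit and nigrofasciatus hybrids. In kyathit melanophore-enriched libraries the paternal allele made up 27.1%, 24.4% and 25.9% of its value in batches 3, 4 and 5 (log2 ratio -1.44 ± 0.33, limma adjusted p = 0.00756). In kyathit iridophore-enriched libraries it made up 37.5%, 31.8% and 30.7% (-0.99 ± 0.19, adjusted p = 0.000868) and in kyathit unenriched libraries 28.0%, 37.1% and 45.1% (-0.96 ± 0.28, adjusted p = 0.0348). The D. rerio allele was the higher one in every one of these libraries.

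The nigrofasciatus hybrid gave similar shares for atp6v1h. They were 33.5%, 37.2% and 30.8% in iridophore-enriched (-1.05 ± 0.26, limma adjusted p = 0.00874), 32.4%, 28.0% and 31.7% in melanophore-enriched (-1.27 ± 0.28, adjusted p = 0.00517) and 30.8%, 31.2% and 30.2% in unenriched libraries (-1.18 ± 0.29, adjusted p = 0.00823). The xanthophore-enriched groups did not pass in kyathit (-1.25, adjusted p = 0.102) or nigrofasciatus (-1.13, adjusted p = 0.0827), and no group passed in the aesculapii and albolineatus hybrids. Each of the 6 calls of atp6v1h was lost under at least 1 alternative. Without precision weights the iridophore-enriched and unenriched calls were lost in both hybrids (adjusted p from 0.0660 to 0.177). The kyathit melanophore-enriched call was lost without batch 3 or 5, the kyathit unenriched one without batch 3 or 4, the nigrofasciatus melanophore-enriched one without batch 4, and the other nigrofasciatus calls without batch 4 or 5.

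For atp6v1e1b the direction depended on the father. In the nigrofasciatus hybrid the paternal share was 75.2%, 75.9% and 67.3% in iridophore-enriched (1.28 ± 0.22, limma adjusted p = 0.000584), 76.4%, 75.9% and 67.5% in melanophore-enriched (1.30 ± 0.29, adjusted p = 0.00480) and 60.6%, 73.2% and 63.6% in unenriched libraries (0.91 ± 0.30, adjusted p = 0.0421). In the albolineatus hybrid it was 28.3%, 36.3% and 36.6% in iridophore-enriched (-1.01 ± 0.22, adjusted p = 0.00298) and 31.2%, 26.6% and 26.4% in unenriched libraries (-1.31 ± 0.20, adjusted p = 6.76e-05). The D. nigrofasciatus and D. albolineatus copies thus lay on opposite sides of the D. rerio copy in every library of these groups. The nigrofasciatus unenriched call was lost with the batch as a block (adjusted p = 0.0551) and without precision weights (0.171), the melanophore-enriched one without batch 3 or 4 (0.0553 and 0.0558), and the albolineatus iridophore-enriched one without batch 3 (0.0984).

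The C subunit gene atp6v1c1a was lower from the paternal allele in all 4 kinds of library of the nigrofasciatus hybrid and in no other group. Its paternal share was 30.2%, 40.2% and 27.1% in iridophore-enriched (-1.07 ± 0.36, limma adjusted p = 0.0426), 21.3%, 33.9% and 30.8% in melanophore-enriched (-1.30 ± 0.39, adjusted p = 0.0356) and 35.7%, 18.8% and 22.2% in unenriched libraries (-1.69 ± 0.33, adjusted p = 0.00210). In xanthophore-enriched libraries it was 44.2%, 12.6% and 26.5%, of which 2 libraries were deep enough to enter the test (-1.95 ± 0.54, adjusted p = 0.0218). The iridophore-enriched call was lost with the batch as a block (adjusted p = 0.0566), and both the iridophore- and the melanophore-enriched calls were lost without any 1 batch (adjusted p from 0.0923 to 0.236) and with ratios that were not centred (0.0710 and 0.0571), the iridophore-enriched one also without precision weights (0.0551).

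The G gene atp6v1g1 leaned to the paternal allele. Its centred log2 ratio was above 0 in all 16 groups, from 0.03 to 0.93, and passed in kyathit iridophore-enriched (0.71, limma adjusted p = 0.0219), nigrofasciatus iridophore-enriched (0.93, adjusted p = 0.0173) and nigrofasciatus unenriched libraries (0.89, adjusted p = 0.0294). The paternal share in nigrofasciatus iridophore-enriched libraries was 67.0%, 69.2% and 68.1%. All 3 calls were lost without precision weights (adjusted p = 0.212, 0.0783 and 0.109), that in kyathit also without any 1 batch (from 0.0585 to 0.139), and both in nigrofasciatus without batch 4 or 5 (from 0.123 to 0.276).

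**Figure D5:**
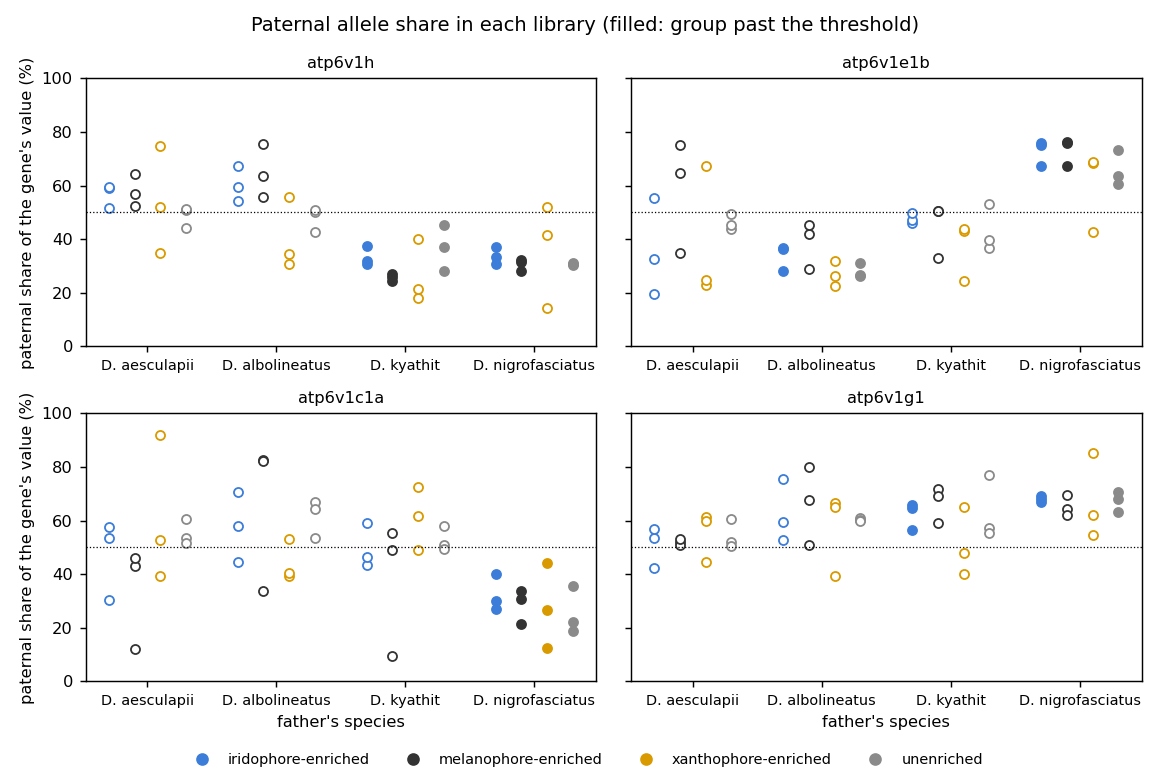
Paternal share of the value of 4 V1 genes (vertical axis, percent) in each library, by father's species (horizontal axis) and kind of library (colour, 3 libraries each). Filled points belong to groups whose library-centred log2 ratio passed a limma adjusted p of 0.05, and the dotted line marks equal uncentred shares; atp6v1c1a is filled only in the nigrofasciatus hybrid, and atp6v1e1b is on opposite sides in albolineatus and nigrofasciatus.

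The ring gene atp6v0b was lower from the paternal allele in 5 groups. Its log2 ratio was -2.49 in aesculapii melanophore-enriched and -1.48 in aesculapii unenriched libraries, -0.94 in kyathit iridophore-enriched, -1.18 in kyathit unenriched and -2.07 in nigrofasciatus melanophore-enriched libraries (limma adjusted p from 0.0115 to 0.0385). The last of these rested on paternal shares of 23.2%, 41.6% and 1.02%, which differ widely, and became -1.11 (adjusted p = 0.291) without batch 5. The ratio in aesculapii melanophore-enriched libraries rested on few molecules. Its values were 639, 327 and 797 in batches 3, 4 and 5, where 1 molecule was worth 210, 39.1 and 58.2. None of the 5 calls passed under every alternative: those in aesculapii melanophore-enriched (adjusted p = 0.0555), aesculapii unenriched (0.0978), kyathit iridophore-enriched (0.0555), kyathit unenriched (0.322) and nigrofasciatus melanophore-enriched libraries (0.0598) were all lost without batch 3. The stalk gene atp6v1e1a was lower from the paternal allele in albolineatus iridophore-enriched (-2.13), albolineatus unenriched (-1.19) and aesculapii unenriched libraries (-1.48). These calls were lost without batch 3 or 5, without batch 4 or 5, and without any 1 batch, in that order, both unenriched ones also without precision weights (adjusted p = 0.179 and 0.171). The ring gene atp6v0cb was higher from the paternal allele in albolineatus unenriched libraries, at 80.9%, 75.8% and 78.8% (1.74 ± 0.31, adjusted p = 0.000491), and lower in aesculapii iridophore-enriched libraries, at 10.19%, 19.7% and 1.16% (-2.38 ± 0.63, adjusted p = 0.0224). The aesculapii group averaged 9.03 molecules a library for this gene, and its call was lost without batch 5 (adjusted p = 0.0742).

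The gene atp6v1c1b was higher from the paternal allele in kyathit melanophore-enriched libraries, at 78.9%, 74.7% and 95.1% (2.11 ± 0.52, limma adjusted p = 0.0131), and became 1.59 (adjusted p = 0.188) without batch 5. Of the other members, atp6v1d (1.07, albolineatus iridophore-enriched) and atp6v1f (0.91, kyathit iridophore-enriched) were each higher from the paternal allele in 1 group. Lower in 1 group each were atp6ap2 (-0.79, kyathit iridophore-enriched) and atp6v1ba (-0.995, albolineatus unenriched). All 4 were lost without precision weights (adjusted p from 0.0508 to 0.202) and, except that of atp6v1ba, without 2 or more of the batches in turn. The 7 members tested and called in no group were atp6v1aa, atp6v1ab, atp6v0a1a, atp6v0a2b, atp6v0ca, atp6v0d1 and atp6ap1b.

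Allele ratios were compared among hybrids within each kind and among kinds within each hybrid. Each allele needed at least 10 molecules summed over the 12 libraries of a test, and the rarer allele at least 5% of them. Genes also had to be testable in all 4 groups compared. Among hybrids, 9 of 52 member tests passed a limma adjusted p of 0.05, in 5 genes, against 25.7% of all tests. In iridophore-enriched libraries 4 of 15 passed (atp6v1e1b, atp6v1h, atp6v0cb and atp6v1d), against 33.7% of all genes, in melanophore-enriched libraries 2 of 13 (atp6v1h and atp6v1e1b), against 19.7%, in xanthophore-enriched libraries 0 of 7, against 16.3%, and in unenriched libraries 3 of 17 (atp6v1e1b, atp6v1c1a and atp6v1h), against 26.1%. In iridophore-enriched libraries the log2 ratio of atp6v1e1b was -0.72, -1.01, -0.12 and 1.28 in the aesculapii, albolineatus, kyathit and nigrofasciatus hybrids (adjusted p = 0.000285), and that of atp6v1h was 0.35, 0.53, -0.99 and -1.05 (adjusted p = 0.00190). Among kinds of library, 0 of 43 member tests passed, against 2.40% of all tests, with 3 at an unadjusted p under 0.05 and a lowest limma adjusted p of 0.0503, for atp6v1f in the albolineatus hybrid, where 5.81% of all genes passed.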

How the data were processed

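PolyA RNA of 48 libraries was sequenced from Smart-seq cDNA, per the labels' protocols. The deposited score of each gene is an allele's read count that the authors divided by a size factor and rounded, which removes the original depth. Median-ratio size factors over the 96 separate allele columns were 1.08 to 1.09. Scaling each allele column on its own gives such near-equal factors, and it removes a library-wide difference between the alleles. Paternal shares are therefore shares of scaled values and not of reads. The recomputed size factors used for rescaling were another calculation, over the 48 libraries with both alleles summed. The submitters' processing notes name GRCz11, featureCounts and DESeq2 1.44.0 without roles; which aligner, strand setting and variants were used is not given in the sources used here. Members and gene lists were chosen with earlier results of these data known. Genes needed a mean over both kinds worth 5 molecules at the median depth of the sorted (or the shallower) kind, where the design named the sorted libraries alone. A molecule's worth was estimated per library from the scatter of paternal shares over genes with values of 300 to 3000, which absorbs real scatter too; no counting intervals are given. Expression was tested with limma 3.58.1 (R 4.3.3) on log2(value + 20), which understates folds of low genes, with 16 group means, precision weights, and hybrids weighted equally. Allele ratios used molecules with 0.5 added, needed 5 molecules in 2 of 3 libraries, and left out libraries under 3 molecules and mitochondrial genes. P-values were adjusted by Benjamini-Hochberg over all genes of a comparison. Genes given with all values are up to 5 a direction in each expression contrast and up to 8 for alleles. The numbers 3, 4 and 5 are the labels' batches and so pair libraries; same-numbered libraries had a median correlation of deviations of 0.0599, others -0.0301. The procedure was tested on simulated data. There the F test of allele ratios among kinds called slightly too many genes in the albolineatus hybrid. No genome or annotation was used, so sequences and positions are not reported.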

Additional observations from a re-analysis of the deposited data

Results flagged for a closer look

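In 9 of 52 member tests the paternal to D. rerio log2 ratio differed among the 4 hybrids within a kind of library, by limma's F test with adjusted p-values. Over all genes 25.7% of such tests passed, so the members did not stand out. In iridophore-enriched libraries these were atp6v1e1b (adjusted p = 0.000285), atp6v1h (0.00190), atp6v0cb (0.00260) and atp6v1d (0.0249). In melanophore-enriched libraries they were atp6v1h (0.00159) and atp6v1e1b (0.0226), and in unenriched libraries atp6v1e1b (0.000512), atp6v1c1a (0.00189) and atp6v1h (0.0335).

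The ratios, in the order aesculapii, albolineatus, kyathit and nigrofasciatus, were -2.36, 0.33, 0.90 and 0.32 for atp6v0cb and -1.13, 1.1, -0.40 and -0.70 for atp6v1d in iridophore-enriched libraries. For atp6v1c1a in unenriched libraries they were 0.34, 0.66, 0.02 and -1.69. For atp6v1h they were 0.39, 0.74, -1.45 and -1.28 in melanophore-enriched and -0.09, -0.10, -0.96 and -1.18 in unenriched libraries. For atp6v1e1b they were -0.07, -0.71, -0.23 and 1.30 in melanophore-enriched and -0.19, -1.31, -0.59 and 0.91 in unenriched libraries. Of the 9, atp6v1h in unenriched libraries did not pass without precision weights (adjusted p = 0.0538) or without any 1 batch (0.0720, 0.212 and 0.154 without batch 3, 4 and 5), and atp6v1e1b in melanophore-enriched libraries did not pass without weights (0.0704) or without batch 3 (0.0992). Without batch 3, 4 and 5, 5, 3 and 4 of the 9 passed, 2, 1 and 1 did not, and 2, 5 and 4 could not be tested. Which positions distinguish the parents differs between hybrids, and its part in these differences was not tested.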

How the results depend on the processing

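The alternatives were pseudocounts of 5 and 100, recomputed size factors, other molecule minimums, no precision weights, a replicate block (the batch), other ratio settings, and leaving out each replicate number or both shallow unenriched libraries. With a minimum of 20 molecules few members could be tested, and the calls against unenriched libraries were 5 of 5 in iridophore-, 1 of 1 in melanophore- and 0 of 0 in xanthophore-enriched libraries; they were 2 of 5 (0 higher, 2 lower) for iridophore- against melanophore-enriched and 0 of 0 against xanthophore-enriched libraries. A minimum of 1 molecule gave 5 calls of 19 in xanthophore-enriched against unenriched libraries. Without precision weights 7 members differed between melanophore- and xanthophore-enriched libraries, and with the replicate block 4; the block changed no call of a member other than those given with the results. With 5 molecules in each kind, added after seeing the data, 8 members differed between melanophore-enriched and unenriched, 2 between iridophore- and melanophore-enriched and 2 between iridophore- and xanthophore-enriched libraries; fewer could be tested. Without weights there were 21 allele ratio calls, which kept 15 of the 33 reported and lost 18. With 2 molecules added to each allele, 1 member ratio differed among kinds. Without 1 replicate number the counts ranged from 12 to 13 (iridophore) and 12 to 13 (melanophore) to 0 to 2 (xanthophore against unenriched), 4 to 5 for iridophore against melanophore, 1 to 5 for iridophore against xanthophore, 0 to 0 for melanophore against xanthophore, 12 to 22 for allele ratios, 0 to 1 among kinds and 4 to 5 among hybrids. The number of allele tests fell to 181 to 199 without replicate 4 or 5, against 250. The number of genes tested for expression moved both ways. For iridophore-enriched against unenriched libraries it was 6441, 5880 and 6307 without replicate 3, 4 and 5, against 6213. The part of the number of tests in these counts was not tested.

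Every reversal was of a member that did not pass, and where 1 replicate number was left out it is given as a range. Against unenriched libraries, atp6v1aa ranged from -0.46 to 0.047 in iridophore-enriched, atp6v0a1a from -0.24 to 0.59 in melanophore-enriched and atp6v1h from -0.15 to 0.27 in xanthophore-enriched libraries. Between iridophore- and melanophore-enriched libraries, atp6v0d1 ranged from -0.16 to 0.15, atp6v1c1a from -0.073 to 0.25, atp6v1c1b from -0.21 to 0.22 and atp6v1e1b from -0.028 to 0.12. Against xanthophore-enriched libraries, atp6v1d ranged from -0.33 to 0.55 in iridophore- and from -0.11 to 0.82 in melanophore-enriched libraries, and atp6v0a1a from -0.23 to 0.64 in melanophore-enriched libraries. Without the shallow unenriched libraries, atp6v1aa in melanophore-enriched libraries became -0.15 and atp6v0a1a in xanthophore-enriched ones 0.043, and this was 0.067 with recomputed size factors. Between iridophore- and melanophore-enriched libraries, atp6v0d1, atp6v1c1a and atp6v1c1b became -0.00325, 0.039 and -0.022 without precision weights, and atp6v1c1a 0.025 with the replicate block. The cause was not tested. At the depth of the sorted libraries, 5 molecules corresponded to a value of 154, 305 and 328 for iridophore-, melanophore- and xanthophore-enriched libraries, and members below it could not be tested.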
